A study of Rattus norvegicus with 24 samples.

Results

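Burned rat liver was followed over days 2, 4 and 7 on 9 arrays, 3 per day, out of 24 arrays in the series. The 9 were chosen by their titles, whose letters b and s stand for burn and sham by the series title and some descriptions. Each array holds total RNA of whole liver of Rattus norvegicus. The 9 sham arrays of the same days, also 3 per day, serve as the background. Strain, sex, age, the way the burn was made, what sham rats underwent and whether each array is a rat of its own are not stated in the labels. P-values therefore weigh differences between groups only against the spread of these arrays within groups, and that spread may be technical. The description of burn day 2 replicate 1 speaks of a sham control, against its title. The title was followed. The numbers of rows called between burn days and in the tests of burn against sham are also given without that array, and other counts include it. Day 1 was left out because its rows are in another order.

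The liver is a main target organ of a large burn, although the burned tissue lies elsewhere. Signals from the wound and from immune cells reach hepatocytes, which raise the output of acute phase proteins, lower that of albumin and other transport proteins, and change their handling of glucose, fat and amino acids. Such programmes start and end at different times, which is why comparing days within burned animals differs from comparing burn with sham on 1 day.

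Each row of the deposited table is 1 probe set, a group of oligonucleotides that reads 1 transcript. The names in this table do not match the values, so no gene is named among the rows tested. For the same reason, the hepatocyte identity of the tissue could not be checked against marker genes. Control rows for Actb, Gapdh and Hk1 were taken by name, and whether these names match their values was not tested. A row is called here by its place in the table, from 1 to 15923. Within days 2, 4 and 7 a row holds the same transcript on every array. After 57 control rows, whose names begin with AFFX, were left out, 15866 rows were tested. Levels are quantile-normalized log2(signal + 16), which understates changes of dim rows. Median deposited signal ran from 174.1 to 233.4 over the 18 arrays. A row was called where the limma adjusted p was under 0.05. In whole tissue, fewer cells of a type and less RNA per cell cannot be told apart.

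The 9 burn arrays were close to each other, and days differed little more than arrays of 1 day. Across rows, arrays of the same burn day correlated at 0.960 to 0.970, and arrays of different burn days at 0.950 to 0.965. The ranges overlap. In a principal component analysis of the 9 arrays, the second component, with 17.0% of the variance, held the days apart. Day 2 arrays stood at 23.9 to 25.8, those of day 7 at -8.81 to 2.66 and those of day 4 at -23.2 to -22.2. The first component, with 18.4%, held day 7 (-34.9 to -17.7) apart from days 2 and 4 together (5.17 to 25.8). These values describe the arrays and carry no test.

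The RNA of the burn arrays also differed by day in its 3' over 5' signal, a sign of RNA integrity or labelling read from control rows. For Actb, cytoskeletal beta-actin, the log2 ratio was 0.11, 0.35 and 0.31 on burn day 2, then 0.73, 0.91 and 0.78 on day 4 and 0.37, 0.41 and 0.44 on day 7. No array of day 4 overlapped the other burn days. Among sham arrays the ratio averaged 0.61 ± 0.28, 0.70 ± 0.24 and 1.15 ± 0.24 (SD, n = 3 each) on days 2, 4 and 7. The Gapdh ratio of burn arrays, from a glycolytic enzyme, followed the same order of days, at 0.27 ± 0.07, 0.57 ± 0.14 and 0.39 ± 0.04 (SD, n = 3 each). The Hk1 ratio, from a hexokinase with a much lower signal, took another order, at 1.46 ± 0.45, 0.64 ± 0.75 and -0.12 ± 0.83 (SD, n = 3 each) on burn days 2, 4 and 7. Counts with the Actb ratio as a covariate are given with each comparison, and its part in the results was not tested further.

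From day 2 to day 4 of burned liver, 34 of 15866 rows changed, 26 of them lower and 8 higher on day 4 (0.214% called, 0.164% lower and 0.0504% higher). The called differences had a median size of 1.28 log2 units and ran from -4.15 to 2.28, while the median size over all rows was 0.19. In 25 of the 34 rows the change was at least 2-fold. In sham liver over the same days limma called 0 rows. At an unadjusted p under 0.05 there were 1601 (10.1%) in sham and 1879 (11.8%) in burned liver.

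**Figure D1:**
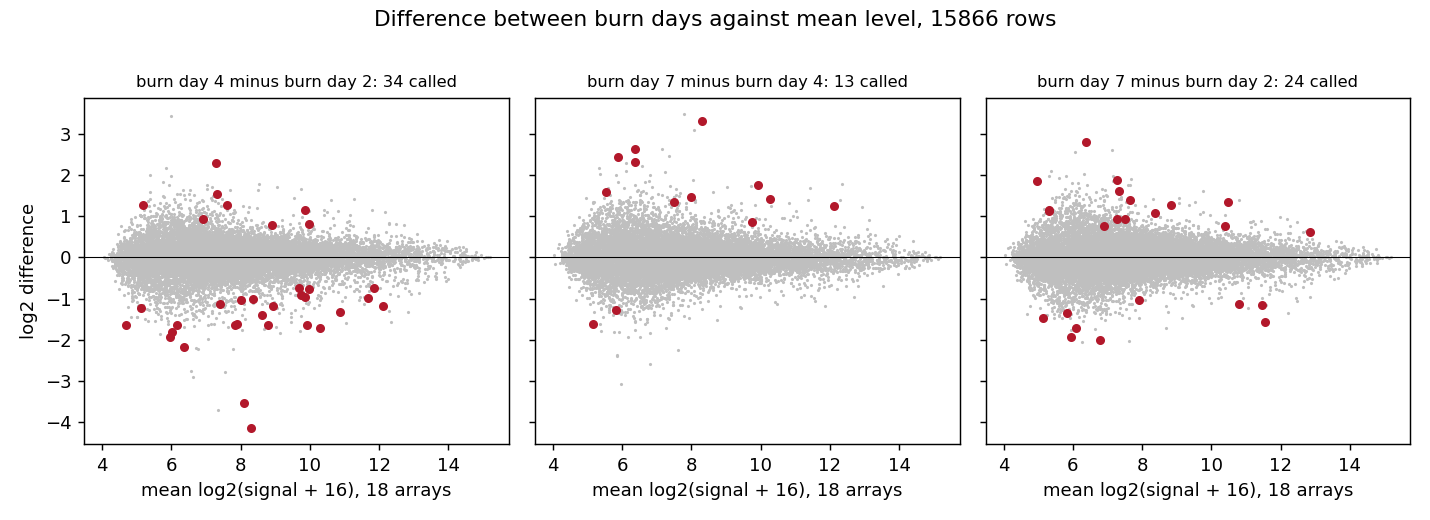
Log2 difference between burn days (vertical axis) against the mean log2(signal + 16) over 18 arrays (horizontal axis), 1 point per row and 1 panel per pair of days, with called rows in red. Called rows lie mostly below 0 for day 4 minus day 2 (26 of 34) and mostly above 0 for day 7 minus day 4 (11 of 13).

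Row 3800 changed most. Its burn arrays stood at 9.23, 10.06 and 9.89 on day 2. They read 5.96, 5.42 and 5.36 on day 4, then 9.36, 7.92 and 9.39 on day 7. In deposited signal, this is 582.3 to 1058.7 on day 2, 21.8 to 52.5 on day 4 and 235.3 to 662.9 on day 7. The signal was lowest on day 4, where the burn arrays lay below all the other 15. The fall from day 2 to day 4 was -4.15 ± 0.34 (SE; limma adjusted p = 6.03e-05), or 17.7-fold, and the rise to day 7 was 3.31 ± 0.34 (SE; limma adjusted p = 0.0012), or 9.92-fold. These folds depend on the pseudocount of 16: with 1 the differences were -4.69 and 3.82, and with 64 they were -3.22 and 2.45. Both calls held in all 29 alternatives run for each, the covariate fit included, with limma adjusted p up to 0.0243 (Actb ratio covariate) and 0.0488 (log2 threshold of 1). Sham arrays stood at 9.10, 9.11 and 9.52 on day 2, 7.42, 8.09 and 7.78 on day 4, and 8.70, 8.48 and 8.63 on day 7. The sham level was also lowest on day 4, by -1.48 ± 0.34 (SE) from day 2, which was not called (limma adjusted p = 0.196). Whether burn and sham differed in these steps was tested directly, and neither difference passed: -2.67 from day 2 to 4 (limma adjusted p = 0.141) and 2.47 from day 4 to 7 (limma adjusted p = 0.0859).

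Among the other rows that fell by day 4, row 8943 went from 9.51, 9.66 and 10.10 on day 2 to 6.47, 6.01 and 6.17 on day 4, a change of -3.54 ± 0.65 (SE; limma adjusted p = 0.0357). On burn day 7 it was back at 9.22, 8.93 and 9.80. This row took a high or a low level rather than values in between: sham arrays read 8.37 to 8.80 on 6 arrays and 5.73 to 6.22 on the remaining 3, which were sham day 4 replicate 3 and sham day 7 replicates 1 and 3. Its call was lost in 14 of 29 alternatives, among them the fit without burn day 2 replicate 1.

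Row 13913 gave 6.93, 7.37 and 7.40 on day 2, 4.68, 4.71 and 5.76 on day 4, and 7.41, 7.46 and 7.20 on day 7, while sham averaged 6.07 ± 0.65, 6.28 ± 0.41 and 6.17 ± 0.31 (SD, n = 3 each). Burn was thus above the sham mean on days 2 and 7 and below it on day 4. Its differences were -2.18 ± 0.33 (SE; limma adjusted p = 0.0144) and then 2.30 ± 0.33 (SE; limma adjusted p = 0.015). Row 11263, at percentile 89.0 of mean level, was also lowest on burn day 4. It read 10.51, 10.93 and 11.21 on day 2, 9.30, 9.32 and 8.87 on day 4, and 10.89, 9.89 and 10.94 on day 7. Its fall was -1.72 ± 0.24 (SE; limma adjusted p = 0.0113). Sham of row 11263 averaged 10.79, 10.08 and 10.23 on days 2, 4 and 7. The sham difference from day 2 to 4 was -0.71 ± 0.24 (SE), not called (limma adjusted p = 0.352). Burn and sham differed in this step by -1.01, also not called (limma adjusted p = 0.433). Row 14591 changed by -1.92 ± 0.29 (SE; limma adjusted p = 0.0144) and did not come back. It read 7.55, 6.70 and 7.51 on day 2, 5.75, 5.30 and 4.93 on day 4, and 5.20, 5.41 and 5.35 on day 7.

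The 5 rows named among those that rose by day 4 had burn day 2 below all the other 15 arrays, as had 0.863% of all rows. They were named for burn day 2 arrays that lay below those of burn day 4, which favours this. Row 11405 stood at 5.16, 6.10 and 4.74 on burn day 2 and at 7.27, 8.16 and 7.41 on day 4, a rise of 2.28 ± 0.32 (SE; limma adjusted p = 0.0108), or 4.87-fold. Adding 1 or 64 to the signal instead of 16 gave a rise of 2.95 or 1.45. Sham arrays read 7.07 to 7.30 on day 2, above all 3 burn arrays of that day. Row 2296 went from 5.85, 6.43 and 6.01 to 7.27, 7.51 and 8.16, a rise of 1.55 ± 0.26 (SE; limma adjusted p = 0.0211), and its 9 sham arrays lay between 6.58 and 7.99. Row 14699 rose by 1.27 ± 0.21 (SE; limma adjusted p = 0.019), from 7.11, 6.06 and 6.89 to 8.06, 7.89 and 7.93, and sham lay between 7.54 and 7.90 on all days. On day 4 the burn arrays of rows 11405, 2296 and 14699 overlapped the sham arrays.

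Row 2989, at percentile 85.5, had the same start with a partial return. Its burn arrays read 9.28, 9.28 and 8.85 on day 2, 10.35, 10.51 and 10.00 on day 4, and 9.50, 9.77 and 9.35 on day 7. The rise to day 4 was 1.15 ± 0.17 (SE; limma adjusted p = 0.0128). Sham of row 2989 averaged 9.81, 10.13 and 10.29 on days 2, 4 and 7. Burn and sham differed in the step to day 4 by 0.83, which was not called (limma adjusted p = 0.36). Row 6549 rose by 0.93 ± 0.14 (SE; limma adjusted p = 0.0128), from 6.28, 6.14 and 6.36 to 7.29, 7.31 and 6.98. Its sham arrays lay between 6.68 and 7.40. Without burn day 2 replicate 1, the array with the conflicting description, the fall of row 14591 and the rise of row 2296 were no longer called, while the changes of rows 11405, 14699, 2989, 6549, 13913 and 11263 were.

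**Figure D2:**
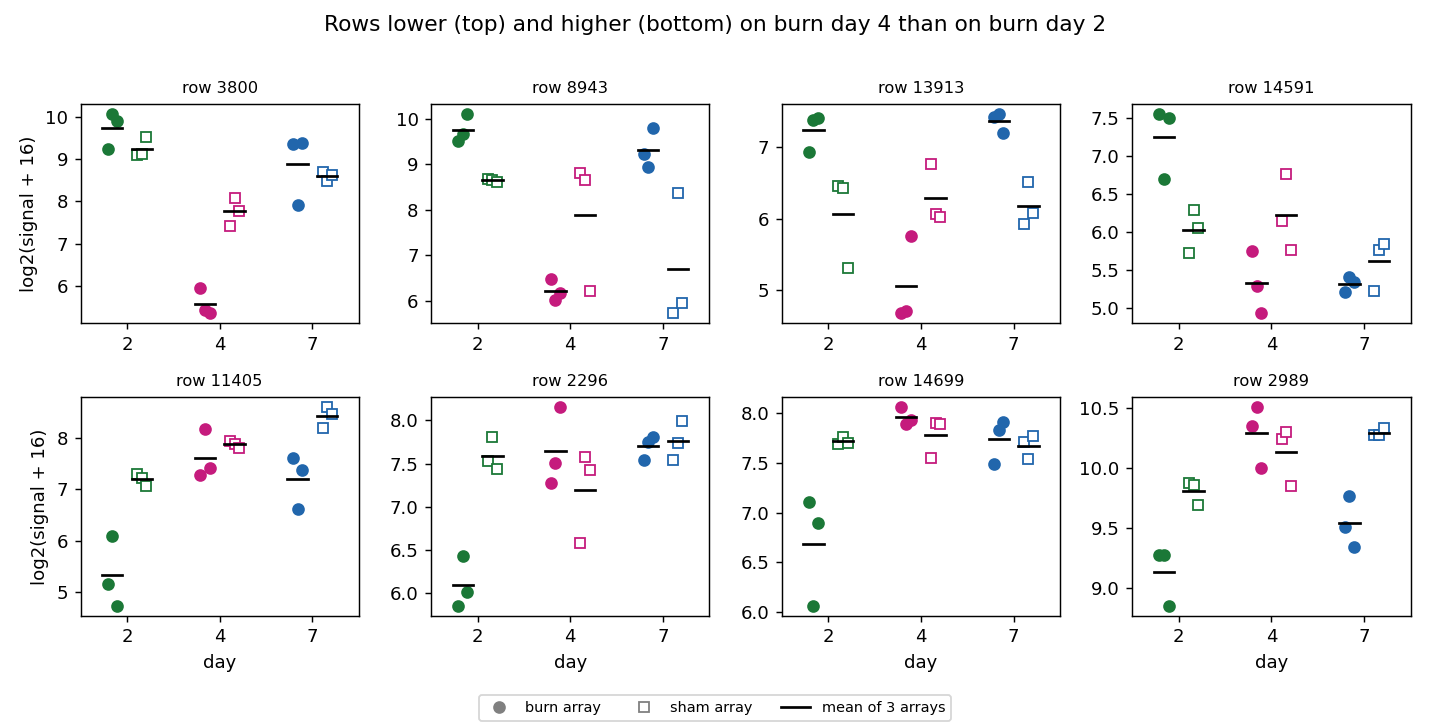
Level in log2(signal + 16) (vertical axis) by day (horizontal axis) for 8 rows called between burn days 2 and 4. Filled circles are burn arrays, open squares sham arrays and lines means of 3 arrays. In the upper panels burn day 4 lies low (5.58 on average in row 3800), and in the lower panels burn day 2 does (5.33 in row 11405).

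The number of rows called from day 2 to day 4 depended on single arrays. Leaving out burn day 2 replicate 1 gave 18, leaving out burn day 4 replicates 2 or 3 gave 7 or 16, and leaving out sham day 2 replicate 3 gave 56. With the Actb ratio as a covariate 1 row was called, row 3800, although all 34 kept their direction, with a median size of 1.09 instead of 1.28 and a median SE of 0.29 instead of 0.20.

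From day 4 to day 7, 13 rows changed, 11 higher and 2 lower on day 7 (0.0819% called, 0.0693% higher and 0.0126% lower). Sham liver had 11 rows called over this step (0.0693%), 0 of them among the 13. Median size was 1.58 log2 units, and 12 of the 13 changed at least 2-fold. Of the rows called on either step, 8 were called on both, 7 of them lower and then higher and 1 higher and then lower. Both steps use the day 4 arrays, so a shift of those arrays moves them in opposite ways. Over all rows tested, 64.4% had steps of opposite sign. In the 8 rows the difference between days 7 and 2 was 0.05 to 0.84 in size, and its signed median was 0.00.

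Row 2716, a bright row at percentile 86.0, dipped on burn day 4. Its burn arrays read 10.34, 10.24 and 10.67 on day 2, 8.77, 8.67 and 8.90 on day 4, and 10.66, 9.96 and 11.02 on day 7. All 9 sham arrays lay between 9.65 and 10.18, so all burn arrays were above them on day 2 and below them on day 4, and 2 of 3 were above them on day 7. The rise to day 7 was 1.77 ± 0.22 (SE; limma adjusted p = 0.00443). Its call held in 26 of 29 alternatives and was lost with the Actb ratio as a covariate (limma adjusted p = 0.0635). The sham difference over the same step was 0.06 ± 0.22 (SE), and the difference between burn and sham steps, 1.71, was not called (limma adjusted p = 0.0859). Row 15200 took a like course, with 8.33, 8.16 and 8.27, then 6.92, 7.66 and 7.09, then 8.63, 8.70 and 8.72, and sham arrays at 7.72 to 8.25.

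In rows 9696 and 2031 burn day 7 was above both earlier burn days. Row 9696 read 5.76, 5.77 and 5.56 on burn day 2, 5.94, 6.04 and 5.64 on day 4 and 8.43, 8.63 and 8.46 on day 7. It rose by 2.63 ± 0.45 from day 4 (SE; limma adjusted p = 0.0464), or 6.20-fold, and by 2.81 ± 0.45 from day 2 (SE; limma adjusted p = 0.0397). The sham arrays of all days lay between 5.50 and 6.41, except sham day 7 replicate 2 at 8.07. Row 2031 read 5.15, 6.74 and 6.21, then 5.39, 4.97 and 5.02, then 7.48, 7.46 and 7.76, a rise of 2.44 ± 0.42 from day 4 (SE; limma adjusted p = 0.0464). Its sham arrays lay between 4.89 and 6.61, and burn day 2 replicate 2 above them. Day 4 had its lowest mean, and its difference between days 7 and 2, 1.53, was not called (limma adjusted p = 0.144). The calls from day 4 were lost in 19 of 28 alternatives for row 9696, among them the fit without burn day 2 replicate 1, and 17 of 28 for row 2031. Adding 1 or 64 instead of 16, the rise of row 9696 from day 4 came to 3.01 or 1.94, and that of row 2031 to 3.15 or 1.51.

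Among rows whose higher day averaged at least 7, falls from day 4 to day 7 were not called. The 5 with the smallest p included row 676, with 8.20, 8.43 and 7.90 on day 4 and 5.86, 5.27 and 6.66 on day 7 (-2.25 ± 0.43, SE; limma adjusted p = 0.081), and row 1852, with 7.45, 7.28 and 7.74 and then 5.95, 5.61 and 5.40 (-1.84 ± 0.35, SE; limma adjusted p = 0.0724). The others were rows 6726, 3217 and 14035, at -1.33, -1.18 and -0.67 (limma adjusted p = 0.0665, 0.0665 and 0.081). In row 3217 the sham difference was -0.72 ± 0.21 (SE), and in rows 676, 1852 and 6726 it was 0.22, -0.06 and -0.10. In row 14035 it was 0.39 ± 0.13, opposite to the burn difference, and the difference between them, -1.05 ± 0.18 (SE), was not called (limma adjusted p = 0.0731).

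The count of 13 also rested on single arrays. Leaving out burn day 2 replicates 1 or 3 gave 11 or 8, burn day 4 replicates 1, 2 or 3 gave 22, 3 or 8, burn day 7 replicate 3 gave 5, and sham day 2 replicate 3 gave 25. With the Actb ratio as a covariate 2 rows were called, and 1 of the 13 was among them.

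Between day 2 and day 7, 24 rows changed, 15 higher and 9 lower on day 7 (0.151% called, 0.0945% higher and 0.0567% lower). Sizes ran from -2.00 to 2.81 with a median of 1.31, and 19 of the 24 changed at least 2-fold. The sham difference had the same sign in 23 of the 24 rows, with a median of 0.35 in the rows that rose and -0.34 in those that fell, against 1.15 and -1.47 in burned liver. The rows were chosen for their burn difference, which favours a larger size in burn than in sham. Of the 24, 0 were called among sham arrays by limma, where 2 rows of 15866 were called (0.0126%), and 9 had an unadjusted p under 0.05, as had 13.0% of all rows. For the other pairs of days the sham difference had the sign of the burn difference in 20 of 34 rows (day 4 against 2) and 9 of 13 (day 7 against 4).

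Rows 1921 and 2267 rose from a low burn day 2. Row 1921 read 6.79, 6.93 and 6.45 on day 2, 7.54, 7.00 and 7.70 on day 4, and 8.01, 8.21 and 8.12 on day 7, a rise of 1.39 ± 0.23 (SE; limma adjusted p = 0.0397). Its sham arrays lay between 7.37 and 8.27. Row 2267, at percentile 90.2, read 9.56, 9.20 and 9.49, then 10.98, 10.68 and 9.88, then 10.61, 10.85 and 10.80, with sham at 10.29 to 11.08. It rose by 1.34 ± 0.24 (SE; limma adjusted p = 0.0474). In both rows burn day 2 lay below the other 15 arrays and burn day 7 within the sham range. Rows 2296 and 11405 were called here too, at 1.60 ± 0.26 and 1.87 ± 0.32 (SE; limma adjusted p = 0.0397 each). The sham differences were 0.17 ± 0.26 in row 2296 and 1.22 ± 0.32 in row 11405 (SE), and in row 11405 the difference between burn and sham was 0.65 ± 0.45 (SE; limma adjusted p = 0.843).

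Of the falls, rows 6467, 15376 and 13941 were bright, at percentiles 95.2, 94.9 and 92.1. Row 6467 read 11.83, 12.01 and 12.18 on day 2, 11.11, 11.16 and 12.00 on day 4, and 10.63, 10.90 and 9.79 on day 7, a fall of -1.56 ± 0.26 (SE; limma adjusted p = 0.0397). The sham difference was -0.63 ± 0.26 (SE). In row 15376 the burn difference was -1.15 ± 0.20 and that of sham -0.75 ± 0.20 (SE). In row 13941 the burn difference of -1.13 ± 0.20 and the sham difference of -0.97 ± 0.20 (SE) differed by -0.15 ± 0.28 (SE; limma adjusted p = 0.958). Dimmer falls were those of row 1852, from 7.87, 7.76 and 7.33 on day 2 to 5.95, 5.61 and 5.40 on day 7 (-2.00 ± 0.35, SE; limma adjusted p = 0.0397), and of row 14591 (-1.93 ± 0.29, SE; limma adjusted p = 0.0397). In row 1852 sham took the opposite sign, 0.45 ± 0.35 (SE). With 1 added to the signal instead of 16, the falls of rows 1852 and 14591 were -2.41 and -2.46, and with 64 they were -1.34 and -1.20.

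**Figure D3:**
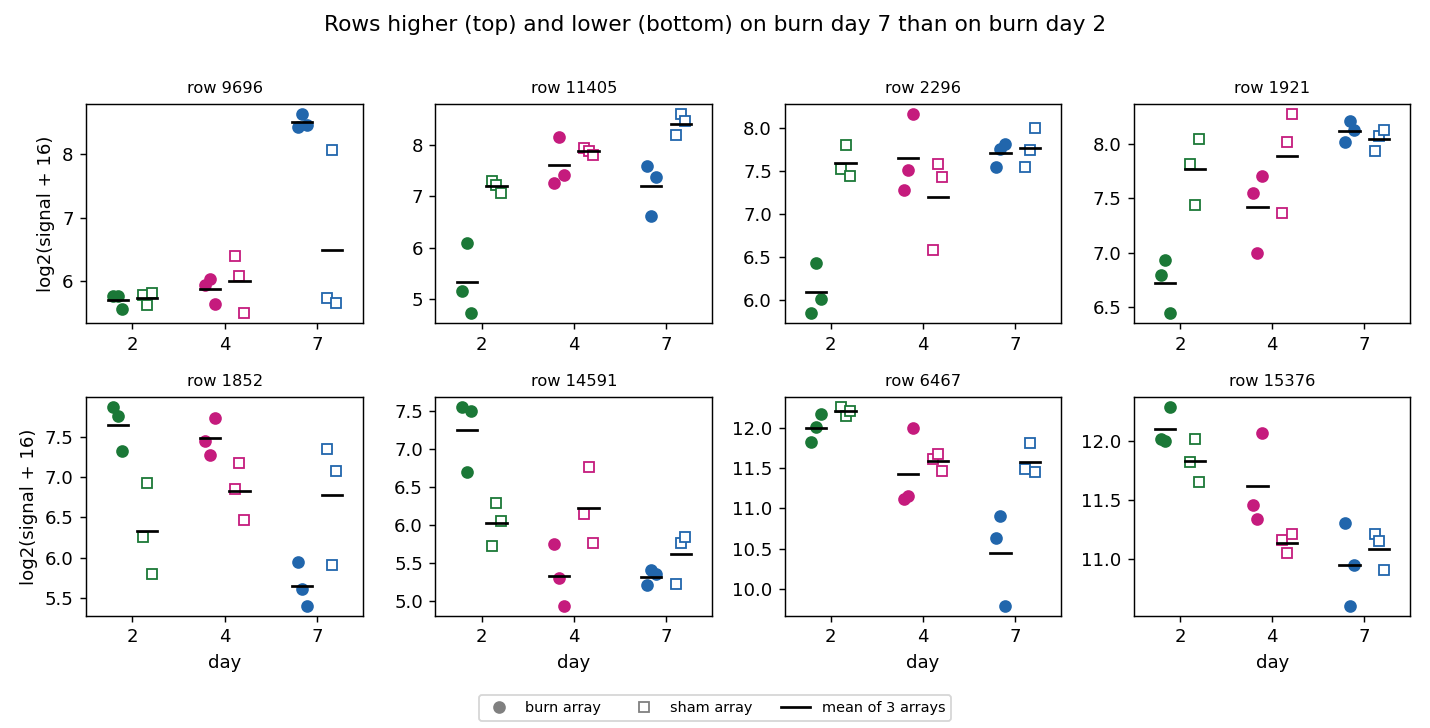
Level in log2(signal + 16) (vertical axis) by day (horizontal axis) for 8 rows called between burn days 2 and 7, with filled circles for burn arrays, open squares for sham arrays and lines for means of 3 arrays. The upper panels show rises, such as row 9696 with burn day 7 at 8.51 on average, and the lower panels falls, such as row 1852 at 5.65.

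All 11 rows named as called between days 2 and 7 lost their call without burn day 2 replicate 1, the array with the conflicting description. The count of 24 depended on single arrays and on the scaling. It was 7, 12 and 6 without burn day 2 replicates 1, 2 and 3, 2, 4 and 0 without burn day 7 replicates 1, 2 and 3, 13 and 11 without sham day 2 replicates 2 and 3, 4, 4 and 8 without sham day 4 replicates 1, 2 and 3, and 9, 4 and 0 without sham day 7 replicates 1, 2 and 3. It was 3 on values as deposited, 15 with median scaling and 0 with the Actb ratio as a covariate, where all 24 kept their direction at a median size of 1.30.

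An F test over the 3 days called 53 rows in burned liver (0.334%) and 8 in sham liver (0.0504%), with 0 in common. At an unadjusted p under 0.05 the order was the other way, with 2370 rows (14.9%) in burned and 2473 (15.6%) in sham liver. The counts themselves were not tested against each other.

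By the order of their day means, 25 of the 53 rows were lowest on day 4, 8 highest on day 4, 12 rose over the days and 8 fell. Over all rows tested the shares were 30.1%, 34.3%, 17.8% and 17.8%, against 47.2%, 15.1%, 22.6% and 15.1% of the called rows. The rows lowest on day 4 had a median range of 1.34 log2 units over burn days and 0.35 over sham days, and a median level at percentile 61.5. The falling rows had a median level at percentile 23.6, with median ranges of 1.52 and 0.62. Their levels were split: rows 6467, 15376 and 13941 lay at percentiles 95.2, 94.9 and 92.1, and the others at 6.09 to 29.2. All these rows were chosen on the burn arrays, which favours larger ranges there than in sham. Sham means took the same order in 5 of 25, 3 of 8, 6 of 12 and 2 of 8 rows. Over all rows of each class this was so in 35.7%, 37.8%, 28.1% and 27.4%.

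**Figure D4:**
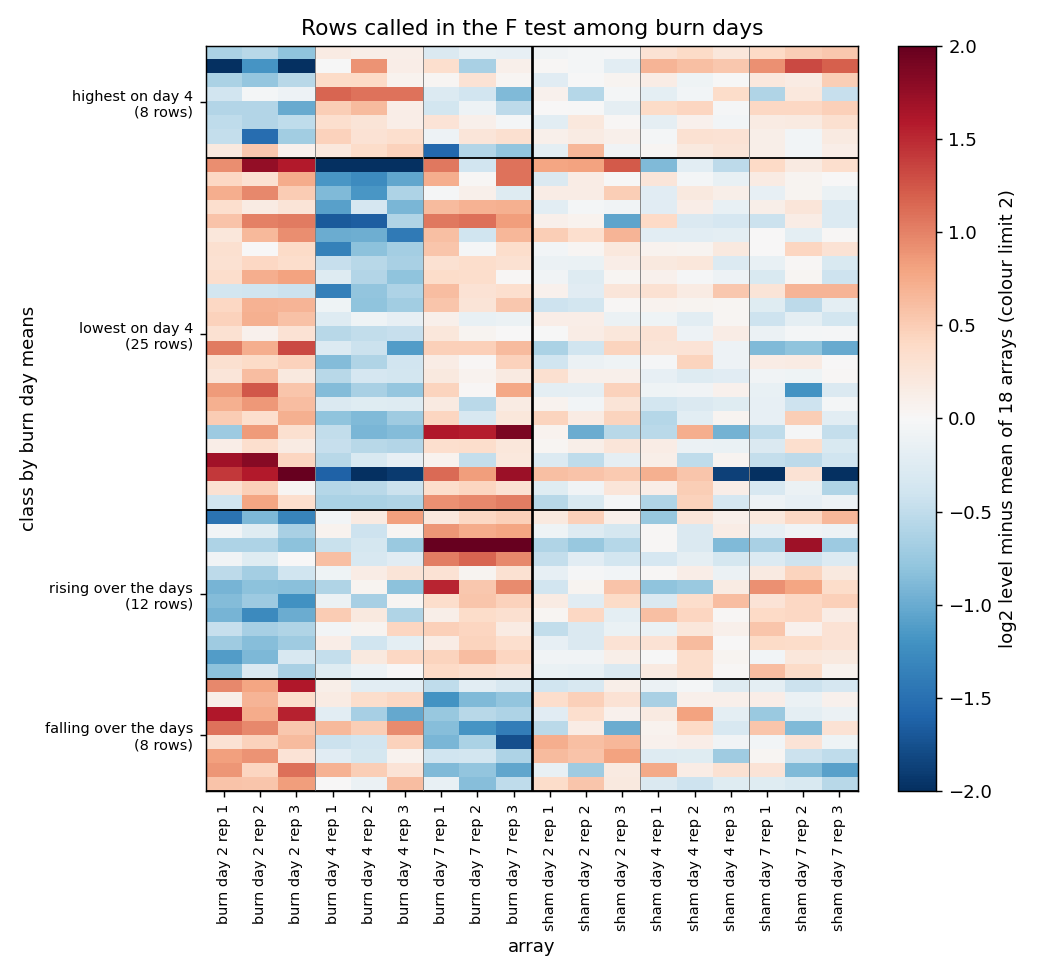
The 53 rows called over burn days (vertical axis, grouped by class) on 9 burn and 9 sham arrays (horizontal axis). Colour is the log2 level minus the row's mean over 18 arrays, and 25 rows form the class lowest on day 4. The rows were chosen on the burn columns.

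In 40 of the 53 rows the arrays of at least 1 burn day lay outside the range of the other 15 arrays, which was so in 2.88% of all rows. Burn day 2 stood below in 13 of the 53 (all rows 0.863%) and above in 6 (0.75%), day 4 below in 12 (0.246%) and above in 1 (0.265%), and day 7 above in 7 (0.397%) and below in 3 (0.378%). The rows were chosen for differences among burn days, so these shares describe them and carry no test. Rows 13690 and 15200 had this on 2 days: row 13690 lay above all others on burn day 2 (8.61, 8.84 and 8.40), below them on day 4 (7.00, 6.72 and 7.27) and at 7.87, 7.98 and 7.62 on day 7, with an F test limma adjusted p of 0.0053. In row 15200 burn day 4 was below and day 7 above.

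Further rows with a strong F test were 10383 and 7398. Row 10383, at percentile 86.6, had a small but tight course: 9.35, 9.42 and 9.18 on day 2, 10.15, 10.11 and 10.10 on day 4, and 9.69, 9.84 and 9.81 on day 7 (F test, limma adjusted p = 0.012). Sham stood at 9.94 ± 0.03, 10.28 ± 0.08 and 10.46 ± 0.07 on days 2, 4 and 7 (SD, n = 3 each). The sham difference from day 2 to 4 was 0.34 ± 0.10 (SE). Burn and sham differed in this step by 0.46, which was not called (limma adjusted p = 0.387). In a fit of the 9 burn arrays alone, row 10383 was not called (F test, limma adjusted p = 0.101). Row 7398 was dim, at 6.09, 5.92 and 6.74 on burn day 2 and between 4.62 and 5.25 on every other array (F test, limma adjusted p = 0.012). The count of 53 was 25 and 35 without burn day 2 replicates 1 and 3, 22 and 29 without burn day 4 replicates 2 and 3, 21 when burn day 7 replicate 3 was left out, and 34 and 35 when sham day 4 replicate 2 or sham day 7 replicate 1 was. With the Actb ratio as a covariate it was 0. Of the 8 rows with the smallest p in this test, row 11405 lost its call without burn day 2 replicate 1.

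Whether a step between days differed between burned and sham liver was tested by the difference of the differences. Limma called 0 rows from day 2 to 4, 2 from day 4 to 7 (0.0126%) and 0 from day 2 to 7, and 1349, 1660 and 1016 rows (8.5%, 10.5% and 6.4%) had an unadjusted p under 0.05. The F test over all days called 0, and 1502 rows (9.47%) had such a p. Without burn day 2 replicate 1 each of these counts of calls was 0. With sham day 2 replicate 3 left out, 11 rows were called from day 2 to 4, and with sham day 7 replicate 2 left out the F test called 20. Of the 34 rows called in burned liver from day 2 to 4, 32 had an unadjusted p under 0.05 in this test, of the 13 from day 4 to 7 all 13, and of the 24 from day 2 to 7, 19. None of them passed adjustment over all rows. They had been chosen on the burn arrays that enter this test, so the unadjusted counts are not independent.

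Neither of the rows that passed was called between burn days 4 and 7. In row 6732, burn arrays read 6.80, 7.13 and 7.24 on day 4 and 6.31, 5.65 and 4.57 on day 7, while sham arrays read 4.77, 5.03 and 5.37 on day 4 and 6.84, 6.95 and 7.02 on day 7. On day 2 the arms overlapped, at 6.82 ± 0.21 and 6.88 ± 0.37 (SD, n = 3 each). The steps were thus opposite, -1.55 ± 0.33 in burn and 1.88 ± 0.33 in sham (SE), and differed by -3.42 ± 0.46 (SE; limma adjusted p = 0.0369). In row 11442, burn arrays read 9.25, 8.80 and 8.63 on day 4 and 9.85, 9.56 and 10.09 on day 7, and sham arrays 10.65, 10.51 and 10.14, then 8.08, 9.21 and 7.87. The difference of the steps was 2.99 ± 0.43 (SE; limma adjusted p = 0.0443). The burn step was 0.94 ± 0.31 (SE; limma adjusted p = 0.254), not called. The sham step, in the opposite direction, was -2.05 ± 0.31 (SE; limma adjusted p = 0.0271) and was called. The count of 2 was 0, 8 and 5 without burn day 2 replicates 1, 2 and 3, 6, 0 and 0 without those of burn day 4, 1 and 10 without burn day 7 replicates 1 and 2, 11, 0 and 4 without those of sham day 2, 0, 0 and 11 without those of sham day 4, and 0, 66 and 0 without those of sham day 7.

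**Figure D5:**
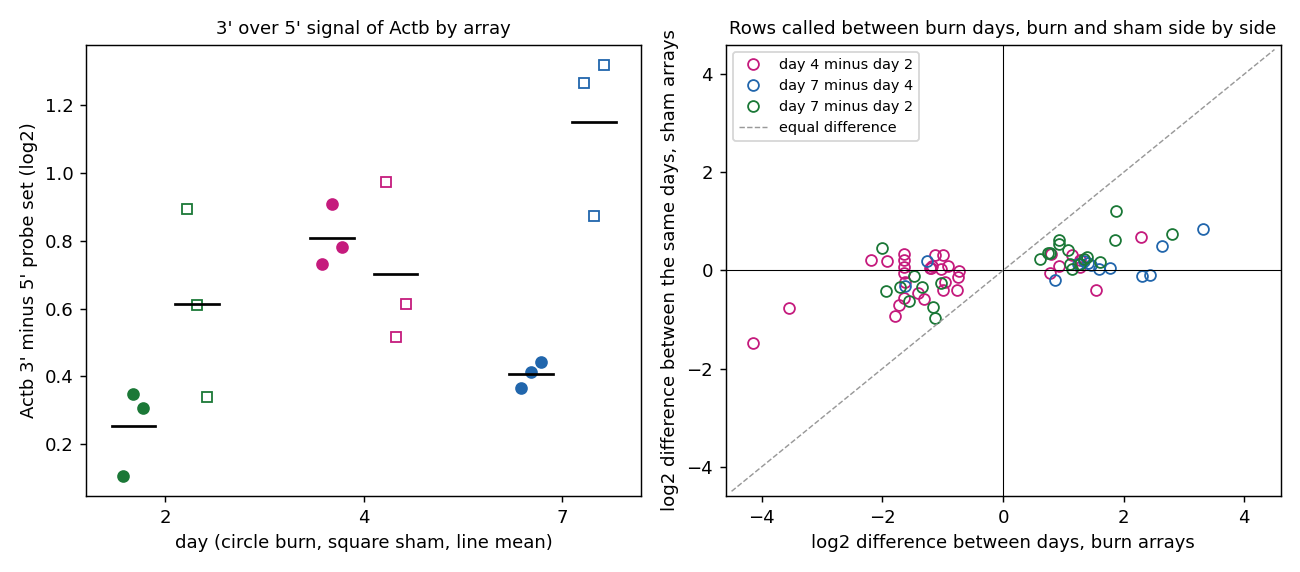
Left, the Actb 3' minus 5' log2 signal (vertical axis) by day (horizontal axis), with filled circles for burn arrays, open squares for sham arrays and lines for means. Burn day 4 lies at 0.73 to 0.91, above the other burn days. Right, for rows called between burn days, the log2 difference among burn arrays (horizontal) against that of the same days among sham arrays (vertical), where most points lie nearer to 0 on the sham axis. The rows were chosen on the burn differences, which favours this.

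Among the 300 rows with the highest mean level, at 12.71 or more, 0 rows were called by limma from day 2 to 4 and 0 from day 4 to 7, with 42 and 44 at an unadjusted p under 0.05 (14.0% and 14.7%, against 11.8% and 11.7% of all rows). From day 2 to 7, 21 had an unadjusted p under 0.05 (7.0%, against 13.3% of all rows), and row 9306 was the 1 row called (0.333%, against 0.151% of all rows). It read 12.46, 12.38 and 12.60 on burn day 2, 12.83, 12.96 and 12.79 on day 4, and 13.17, 13.02 and 13.10 on day 7, a rise of 0.62 ± 0.11 (SE; limma adjusted p = 0.0474), or 1.53-fold. The call was lost in 25 of 29 alternatives. The sham difference was 0.22 ± 0.11 (SE).

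Other very bright rows were named because the arrays of 2 burn days did not overlap, and these were not called. Among the 300 rows, 28.3%, 27.3% and 17.0% had no overlap for day 4 against 2, 7 against 4 and 7 against 2. Over all rows the shares were 17.9%, 18.2% and 18.8%. Row 6225 read 13.55, 13.42 and 13.52 on day 2 and 12.20, 12.91 and 12.83 on day 4 (-0.85 ± 0.19, SE; limma adjusted p = 0.0961), and row 6832 went from 13.14, 12.88 and 12.73 on day 4 to 12.32, 12.04 and 12.30 on day 7 (-0.69 ± 0.14, SE; limma adjusted p = 0.0845). Rows 14491, 8344 and 7265 varied strongly within days. Row 14491 read 11.78, 13.04 and 12.78 on burn day 4 and 12.05, 11.86 and 13.81 on sham day 2, and row 7265 read 10.86, 13.26 and 13.26 and 10.47, 11.03 and 14.12 on the same arrays. Their differences between burn days were not called (limma adjusted p from 0.273 to 0.614).

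By level, 16 of 5289 rows of high mean level were called from day 2 to 4 (0.303%), 10 of 5289 of middle level (0.189%) and 8 of 5288 of low level (0.151%). From day 2 to 7 the counts were 7, 7 and 10. The median spread between arrays of 1 burn day was 0.22, 0.21 and 0.22 (SD) on days 2, 4 and 7 over all rows, and 0.36, 0.32 and 0.35 among the 5288 rows of low level.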

How the data were processed

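Liver RNA of rats was measured on oligonucleotide arrays. The authors deposited linear intensity, with 1 signal for each probe set. No label or header names the software. Trimmed by 2% at both ends, every column averages 500.2, so the deposited signals had been scaled per array. No counts exist, and the number of arrays limits the precision.

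Signals were taken to log2(signal + 16) and quantile-normalized over the 18 arrays of days 2, 4 and 7, because array medians differed by 0.39. limma 3.58.1 in R 4.3.3 fitted 1 mean per group (12 residual degrees of freedom, lmFit and eBayes), with Benjamini-Hochberg adjustment over 15866 rows. The fit was checked on simulated data.

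Named rows are the 5 largest called changes per difference and direction, without overlap and with a higher day averaging at least 7 (filled up with uncalled rows of smallest p), 3 such differences among the 300 brightest rows, the 8 rows of smallest p in the F test among burn days and the 5 in that of burn against sham. Members, rules and alternatives were chosen with earlier results of these data known.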

Additional observations from a re-analysis of the deposited data

Results flagged for a closer look

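For row 6732 the step from day 4 to day 7 differed between burned and sham liver by the test of that difference, at -3.42 ± 0.46 (SE; limma adjusted p = 0.0369). Its levels lie between 4.57 and 7.24, and the size ran from -4.72 with a pseudocount of 1 to -1.98 with one of 64. For row 11442 the same step differed by 2.99 ± 0.43 (SE; limma adjusted p = 0.0443), and the size was 2.08 with the Actb ratio as a covariate. In the F test over all days neither row was called (limma adjusted p = 0.0754 and 0.101, and from 0.00917 to 0.482 and from 0.00327 to 0.592 over the alternatives).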

How the results depend on the processing

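Counts moved with the settings. Of 52 results for named rows, 0 reversed in 538 values under other settings or in 936 with 1 array left out. The choice of rows largely fixed that outcome. Most were named for days without overlap, where leaving out 1 array cannot reverse a sign, and the rest for a small p. A call was lost in 134 and 190 of these values, which include results not called to begin with that had none to lose. The counts of rows, for day 4 against 2, 7 against 4, 7 against 2, all burn days, and the burn against sham step from day 4 to 7, were 34, 13, 24, 53 and 2. Values as deposited gave 3 rows and median scaling 15 for day 7 against 2. A pseudocount of 1 gave 7 for day 7 against 4, 32 for all days and 0 for burn against sham, and one of 64 gave 66, 29, 89 and 7 for day 4 against 2, day 7 against 4, all days and burn against sham. Without the dimmest 33.3% of rows the counts for day 4 against 2, day 7 against 2 and burn against sham were 71, 39 and 18. An intensity trend with robust variance gave 103, 46, 52, 146 and 28, and 10 rows in the F test of burn against sham. Array weights gave 68, 25 and 6 for the burn differences, 30 for burn against sham and 8 in its F test. A log2 threshold of 1 gave 1, 1, 0 and, for burn against sham, 0. The 9 burn arrays alone gave 14, 5 and 15 for day 4 against 2, day 7 against 2 and all days. The Actb ratio as a covariate gave 1, 2, 0, 0 and 0. With 1 array left out the counts ranged from 7 to 56, 3 to 25, 0 to 26, 21 to 79 and 0 to 66, and for burn against sham from 0 to 11 (day 4 against 2), 0 to 2 (day 7 against 2) and 0 to 20 (F test). The causes were not tested, beyond fewer rows or arrays where these were left out.

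With the replicate number as a block the counts were 4, 6, 0, 10 and 0. Same-numbered arrays correlated at -0.09 to 0.07 in their deviations from group means, with 0 of 9 pairs over 0.1, so the numbers were not taken to pair the arrays.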

Other observations

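Among the 5 rows with the smallest p in the F test of burn against sham, 3 were not described above, and limma called none of the 5 in that test (limma adjusted p from 0.0754 to 0.121). Row 9777 was dim, at 4.97 to 5.42 on all 9 burn arrays and on the sham arrays of days 2 and 4, and at 6.19, 6.48 and 6.31 on sham day 7. Row 4680 stood at 6.62 ± 0.18 on day 2 and 7.15 ± 0.06 on day 7 in burn, and at 7.05 ± 0.03 and 6.25 ± 0.25 on the same days in sham (SD, n = 3 each). Row 14826 stood at 9.82, 9.51 and 10.10 on burn day 2, 8.51, 8.35 and 7.66 on day 4 and 9.26, 9.26 and 9.41 on day 7, with sham at 7.90, 7.97 and 7.77 on day 7.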
